A study of Homo sapiens with 23 samples.

Results

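The transcriptome of HCT116 cells was followed along the number of Argonaute (AGO) genes that had been lost, from none to 3. HCT116 is a human colorectal cancer cell line. The members were all 15 RNA-seq samples among the 23 samples of the series: 3 of wild type (WT, 0 genes lost), 3 of A1_KO (AGO1 lost), 3 of A2_KO (AGO2 lost), 3 of A12_KO (AGO1 and AGO2 lost) and 3 of A123_KO (AGO1, AGO2 and AGO3 lost). No treatment was applied, and the cells of every line were otherwise grown alike. Each knockout genotype was a single CRISPR-edited line, so that the number of genes lost and the history of the line cannot be told apart, and the 3 samples of a line measure only the spread within it. The order of loss was also fixed, since AGO3 was missing only where AGO1 and AGO2 were missing too.

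AGO proteins carry a microRNA (miRNA) and find mRNAs mainly through bases 2 to 8 of that miRNA, the seed. The TNRC6 (GW182) scaffold proteins then bring deadenylation and decapping enzymes to the mRNA, so that a bound target is translated less and decays sooner. Human cells have 4 AGO proteins that can load many of the same miRNAs. The question asked of each gene was therefore whether its RNA moved step by step with the losses or only when the last of these 3 genes was lost.

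The following 6 miRNAs are shown because their seeds define the families whose targets are described later. The seed is in capitals, and the letters are from RefSeq on GRCh38.
hsa-let-7a-5p: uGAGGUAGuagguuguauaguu
hsa-miR-17-5p: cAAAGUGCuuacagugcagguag
hsa-miR-200c-3p: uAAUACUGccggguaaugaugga
hsa-miR-27a-3p: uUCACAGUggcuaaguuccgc
hsa-miR-29a-3p: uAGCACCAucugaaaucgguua
hsa-miR-21-5p: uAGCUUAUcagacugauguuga
Among the mature human miRNAs listed, 11 carried the let-7 seed, 8 the miR-17 seed, 3 the miR-200c seed, 3 the miR-27a seed, 3 the miR-29a seed and 2 the miR-21 seed.

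The samples held 27709971 to 45271146 estimated counts each, and A2_KO was the deepest line, with 40419152 to 45271146. The A2_KO files also carried another word in their column headers than the rest, so that a difference in the processing of this line and its genotype cannot be told apart; without the A2_KO line 3786 genes had a higher and 3373 a lower slope, against 3789 and 3269 with it. The 10 most abundant genes took 11.8% to 18.1% of a sample. EPCAM, CDH1, KRT8, KRT18 and KRT19, markers of epithelium, were present in every line, and so were the intestinal factors CDX2 (means of 5.47 to 9.79 counts per 1000000, CPM, here scaled by sample totals) and HNF4A (5.5 to 14.1 CPM), whereas the colon markers CDX1, FABP1 and OLFM4 were at 0 in all samples. From WT to A123_KO the mean fell from 226 to 61.2 CPM for EPCAM and from 104 to 8.25 CPM for CDH1. Other colorectal markers were at or near the floor. The highest sample held 1.57 CPM of KRT20, 1.47 of CEACAM5, 1.06 of MUC2, 0.446 of LGALS4, 0.293 of VIL1, 0.238 of GPA33, 0.0986 of LGR5 and 0.0247 of ASCL2. The 12 fibroblast markers summed to between 14.3 and 40.7 CPM in a sample and did not follow the losses. The 14 blood and endothelial markers summed to 5.99 to 9.79 CPM in WT, 14.7 to 19.8 CPM in A12_KO and 11.8 to 13 CPM in A123_KO. Of these, CD3D and MS4A1 were at 0 in every sample, whereas CD68 reached 9.96 CPM, LYZ 7.7 CPM, PECAM1 1.9 CPM and PTPRC 1.72 CPM.

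The targeted genes were examined first. AGO1 was at 138, 108 and 146 CPM in WT and at 160, 158 and 161 CPM in A2_KO, and it lay between 28.7 and 39.4 CPM in the 9 samples of A1_KO, A12_KO and A123_KO. The samples with and without an AGO1 edit did not overlap. AGO3 was at 100, 130 and 107 CPM in WT, at 89.4, 78.7 and 99.9 CPM in A1_KO, at 106, 109 and 110 CPM in A2_KO, at 103, 114 and 120 CPM in A12_KO and at 51.8, 57.4 and 46.1 CPM in A123_KO. Its RNA fell by 1.11 ± 0.12 (SE) on the log2 scale from A12_KO to A123_KO (edgeR adjusted p = 1.14e-05), and the gene was classed among those that step only at 3. The A1_KO samples, which carry no AGO3 edit, also lay below WT, but the difference between the single knockouts and WT did not pass (-0.19 ± 0.10, edgeR adjusted p = 0.242). AGO2 RNA did not follow its edit: it was at 379, 459 and 382 CPM in WT, at 334, 364 and 350 CPM in A1_KO, at 262, 314 and 283 CPM in A2_KO, at 321, 332 and 364 CPM in A12_KO and at 518, 558 and 538 CPM in A123_KO. The samples of A1_KO, A2_KO and A12_KO lay below WT and those of A123_KO above it. The AGO2 RNA therefore does not check the AGO2 labels, and protein was not measured in these files. The paper reported DNA sequencing of the edited genes and Western blots in which these lines lacked the targeted proteins. AGO4, the one AGO gene that was left intact, lies beside AGO1 and AGO3 on the plus strand of chromosome 1. It was at 21.9, 28.5 and 24.8 CPM in WT, at 17.1, 17 and 26.7 CPM in A1_KO and at 20.3, 10.8 and 15.2 CPM in A2_KO. It was at 21.9, 33.6 and 33.9 CPM in A12_KO and at 69.4, 59.1 and 55.9 CPM in A123_KO. The difference between the single knockouts and WT did not pass (-0.50 ± 0.20, edgeR adjusted p = 0.115). AGO4 rose by 1.05 ± 0.23 on the log2 scale at the third loss (edgeR adjusted p = 0.00387), and its 3 A123_KO samples lay above the 12 others, as they lay beyond them in 22.5% of all genes tested.

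For every gene, log2 expression was regressed on the number of AGO genes lost, and the slope is given in log2 units per gene lost. Of 22823 genes tested, 3789 had a slope that was higher (16.6%) and 3269 one that was lower (14.3%) at an edgeR adjusted p of at most 0.05. This test and the slope p-values of single genes take the 15 samples as units, although the number of losses varied only between the 5 lines. With the 5 line means as 5 points, limma-trend called 0 genes higher and 0 lower. The median slope of all genes was -0.003, and the median standard error of a slope was 0.083. Counts over all genes, over classes and over gene lists include the long arm of chromosome 8 (8q), which held 44 of the higher and 215 of the lower slopes. When the counts were scaled by library totals alone, 40.4% of the calls were higher instead of 53.7%, and the median slope was -0.0397 instead of -0.0027. The separate steps were uneven. Between WT and the mean of the 2 single knockouts 2259 genes differed (9.9%), between the single knockouts and A12_KO 5070 (22.2%), and between A12_KO and A123_KO 5017 (22%). The 2 lines with 1 gene lost were not alike either, since A2_KO and A1_KO differed in 4210 genes (18.4%).

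A called slope did not by itself show a graded change, because A123_KO lies at the end of the scale and weighs most on the slope. Without the A123_KO line, 387 of 22407 genes tested were called higher and 519 lower. At an unadjusted edgeR p under 0.05 there were 4195 genes, against 9390 with all lines. That fit has fewer samples and a shorter scale, so fewer calls there do not show that a trend is absent. The slope over 0 to 2 losses and the departure of A123_KO from the line drawn through 0 to 2 losses were therefore tested together. The first passed in 1425 genes (6.24%) and the second in 991 (4.34%). A gene was called graded when the slope over 0 to 2 losses and that over 0 to 3 both passed with the same sign and the departure did not pass. It was called graded with an added step when the departure passed in the direction of the earlier slope, and turned back when it passed in the other direction. It was called step only at 3 when the departure and the difference between A123_KO and A12_KO passed in the same direction, the slope over 0 to 2 losses did not pass, and the earlier fitted change was at most 0.25 of the last difference.

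By these rules 585 genes were graded and higher (2.56%) and 512 graded and lower (2.24%), together 4.81% of all genes tested. Of these, 6 of the higher and 78 of the lower lie on 8q. A further 54 genes were graded with an added step (0.237%), 424 stepped only at 3 (1.86%), of which 242 were higher (1.06%) and 182 lower (0.797%), and 143 turned back (0.627%). Most genes with a called slope, 5501 or 77.9%, met none of these definitions. The means of the 5 lines stood in the order of the losses in 1397 of the genes with a called slope (19.8%), against 7.29% of all genes tested. The slope and the order were read from the same samples, so a larger share among called genes was built in. Even among the 1097 graded genes only 503 had all means in order, so that graded here means a called movement before the third loss and not equal steps. A2_KO and A1_KO differed in 185 of them (16.9%), against 18.4% of all genes tested. A departure that was not called does not show that a gene followed a straight line. The class counts depended on single samples: the number of graded higher genes was 199, 193 and 248 without A12_KO replicate 1, 2 or 3, and that of step-only lower genes was 108, 98 and 119 without A123_KO replicate 1, 2 or 3.

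**Figure D1:**
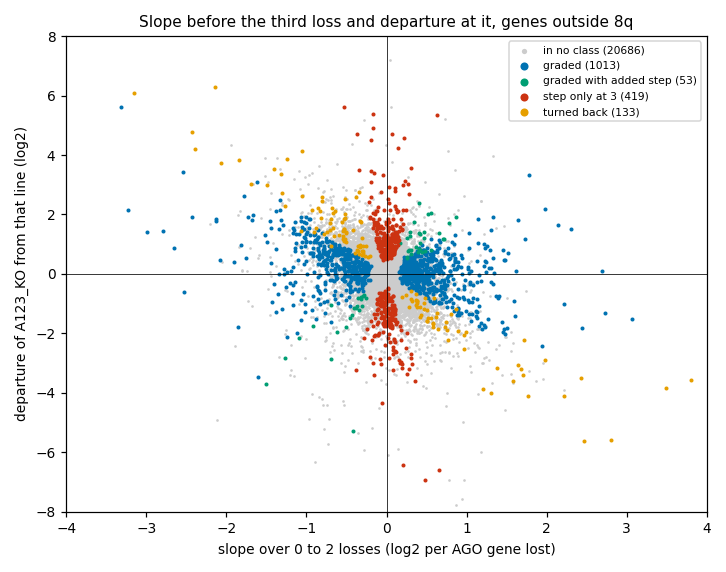
Slope over 0 to 2 losses (x axis, log2 per AGO gene lost) against the departure of A123_KO from that line (y axis, log2) for 22304 genes outside 8q, coloured by class, with 8 genes beyond the axes. Graded genes spread along the x axis and step-only genes along the y axis. Both axes use the same estimate of the early slope, so the tilt of the cloud to the lower right is partly built in.

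Genes named by rank in the graded classes had to have line means in the order of losses, so that ordered separations were partly built in. Among the graded genes that were higher, SKIDA1, a gene related to the SKI family, changed most by the ranking used. It was at 1.82, 1.47 and 1.75 CPM in WT, at 2.68, 3 and 1.77 CPM in A1_KO, at 2.37, 2.01 and 2.28 CPM in A2_KO, at 9.41, 9.48 and 10.3 CPM in A12_KO and at 22.3, 21.3 and 23.3 CPM in A123_KO. The WT, A12_KO and A123_KO samples did not overlap, and on the log2 scale the difference between the single and the double knockouts (2.05 ± 0.13) was larger than the last one (1.19 ± 0.14). The slope was 1.37 ± 0.09 (edgeR adjusted p = 1.96e-07), and A123_KO lay 0.19 ± 0.38 above the line of the earlier losses (edgeR adjusted p = 0.844). ZEB1 (chr10:31318495-31529814, plus strand, hg38), the transcription factor that represses epithelial genes and a well-known miR-200 target, was at 7.89, 9.6 and 9.05 CPM in WT, at 13.4, 15.9 and 15.5 CPM in A1_KO, at 7.43, 9.77 and 10.7 CPM in A2_KO, at 23.1, 28.1 and 28.2 CPM in A12_KO and at 54.4, 58.5 and 65.9 CPM in A123_KO. A2_KO overlapped WT, while A12_KO and A123_KO each lay above all samples with fewer losses. The slope of ZEB1 was 0.96 ± 0.08 (edgeR adjusted p = 7.15e-07). MSX2, a homeobox factor of the BMP pathway, had a mean of 4.68 ± 0.607 CPM in WT, 22.9 ± 6.04 CPM in A12_KO and 42.9 ± 8.73 CPM in A123_KO (SD, n = 3), with a slope of 1.14 ± 0.08. VCAN, which encodes the matrix proteoglycan versican, reached most of its level by the second loss: it was at 187, 179 and 222 CPM in WT, at 1159, 1515 and 1454 CPM in A12_KO and at 2080, 1850 and 1620 CPM in A123_KO. The last difference of VCAN, 0.43 ± 0.19, did not pass (edgeR adjusted p = 0.124).

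Among the graded genes that were lower, ATP2C2, a calcium and manganese pump of the secretory pathway, was at 14.6, 39.2 and 8.87 CPM in WT, between 2.79 and 7.46 CPM in the single and double knockouts and at 1.3, 1.02 and 1.05 CPM in A123_KO. ARRDC4, an arrestin-domain gene responsive to glucose, had widely spread WT samples of 15.6, 77.8 and 23.4 CPM, and was at 2.68, 2 and 1.36 CPM in A123_KO. Its slope was -1.29 ± 0.21 (edgeR adjusted p = 0.000206). WT replicate 2 was the highest WT sample in both genes, as for CDH1, S100A14, ESRP1 and GAS5 below, and the lowest for AXIN2 and SCD. Without it the difference between the single knockouts and WT was called in 1169 genes in place of 2259. The other members of this group named by rank were the lncRNA genes ENSG00000258077 (slope -1.55 ± 0.19) and ENSG00000258088 (slope -1.51 ± 0.17). These lie on the same strand of chromosome 12, and ENSG00000258088 (chr12:75694010-75698816) lies within the span of ENSG00000258077 (chr12:75563202-75984015), so that their values are not independent. CDH1, which encodes the adherens junction protein E-cadherin, was graded as well. It was at 84.5, 134 and 74.6 CPM in WT, at 31.6, 40.2 and 60 CPM in A1_KO, at 80.8, 57.8 and 62 CPM in A2_KO, at 27.1, 29.5 and 36.2 CPM in A12_KO and at 8.73, 9.21 and 7.76 CPM in A123_KO. A123_KO lay below all other samples, and WT was 11.4-fold above A123_KO in the means.

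Genes that were graded and then moved further at the third loss included HEG1, a membrane protein of endothelial junctions. It was at 8.08, 6.19 and 8.17 CPM in WT, at 13.4, 13.2 and 13.3 CPM in A1_KO, at 9, 8.66 and 10.2 CPM in A2_KO, at 24.1, 25.5 and 25.2 CPM in A12_KO and at 115, 170 and 188 CPM in A123_KO. Every later count of losses lay above the earlier ones without overlap, and A123_KO exceeded the extended line by 1.91 ± 0.28 (edgeR adjusted p = 0.00115). The naming rule required line means in order here too, so that this order was partly built in. NAV2, a neuron navigator protein, had a mean of 6.29 ± 0.751 CPM in WT, 16.7 ± 0.25 CPM in A12_KO and 56.6 ± 2.48 CPM in A123_KO. ARSJ, an arylsulfatase, and NCEH1, a cholesteryl ester hydrolase, rose in A123_KO to means of 41.8 ± 3.12 and 148 ± 25.9 CPM, 10.2-fold and 8.97-fold above WT. In the downward direction S100A14, a calcium-binding protein of epithelia, was at 94.8, 145 and 64.8 CPM in WT, at 5.7, 11.2 and 21.1 CPM in A12_KO and at 0.357, 0.35 and 0.305 CPM in A123_KO. Its WT mean was 301-fold above the A123_KO mean, a ratio of uncertain size because the A123_KO samples held only 0.305 to 0.357 CPM. RAB25, an epithelial GTPase of recycling endosomes, was at 32.7, 35.1 and 36 CPM in WT, at 16.5, 20.3 and 21.2 CPM in A12_KO and at 0.561, 0.35 and 0.305 CPM in A123_KO. Most of the RAB25 change therefore fell at the third loss, with a departure of -5.28 ± 0.30 (edgeR adjusted p = 1.25e-07). VGF, a secreted neuropeptide precursor, had a departure of -2.17 ± 0.45 and CKMT1B, a mitochondrial creatine kinase, one of -2.87 ± 0.53. CKMT1B has a near-identical copy, CKMT1A, so that its counts are uncertain.

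**Figure D2:**
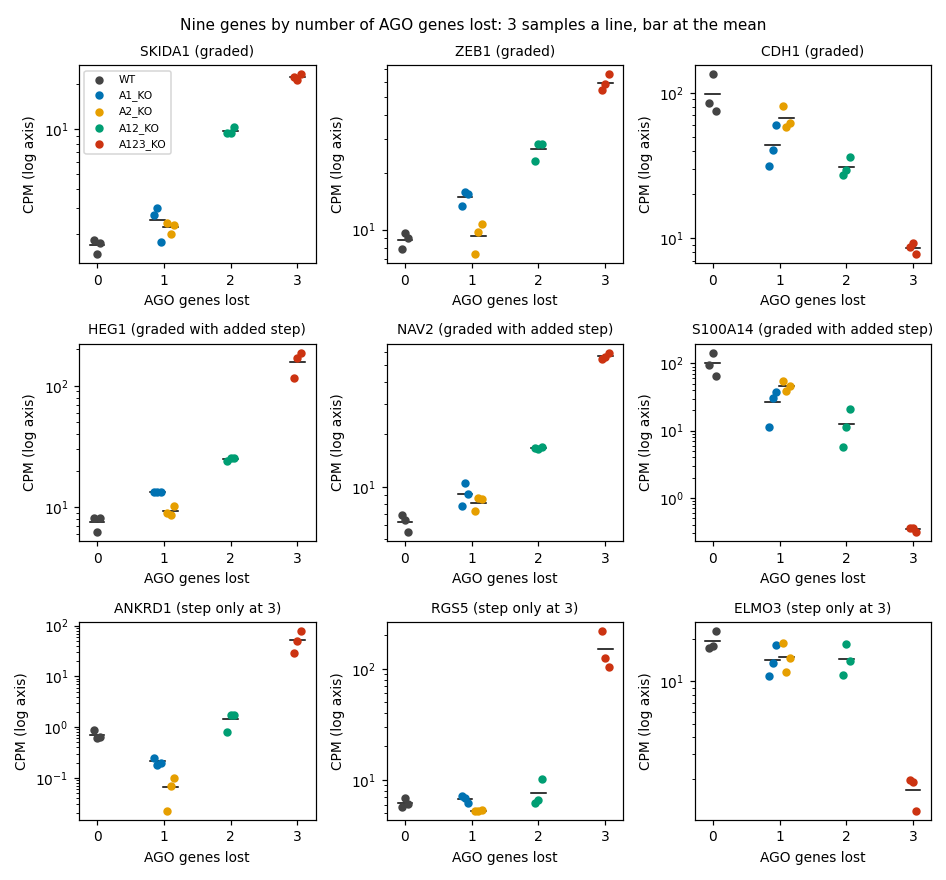
CPM on a log axis (y) against the number of AGO genes lost (x) for 9 genes, 3 samples a line as points with a bar at the mean, with A1_KO and A2_KO side by side at 1. The top row (SKIDA1, ZEB1, CDH1) moved before and at 3 losses, the middle row (HEG1, NAV2, S100A14) moved more at the last, and in the bottom row (ANKRD1, RGS5, ELMO3) A123_KO stands apart from the other lines. The bottom row was picked from genes with all A123_KO samples beyond the others, so that this separation was built in.

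Among the genes that stepped only at 3, RGS5 (chr1:163111121-163321791, minus strand, hg38), a regulator of G protein signalling, was at 5.67, 6.86 and 6.09 CPM in WT, at 7.22, 6.94 and 6.24 CPM in A1_KO, at 5.28, 5.3 and 5.34 CPM in A2_KO and at 6.15, 6.59 and 10.1 CPM in A12_KO. In A123_KO it was at 219, 125 and 103 CPM. The slope over 0 to 2 losses was 0.15 ± 0.13, and the departure was 4.23 ± 0.33 (edgeR adjusted p = 5.99e-06). Genes named by rank in this class had to have all 3 A123_KO samples beyond the 12 others, so that this separation was built in. ANKRD1, a classic target of YAP, was at 0.877, 0.606 and 0.633 CPM in WT and at 29.5, 49.7 and 79 CPM in A123_KO, a mean 74.8-fold above WT. It was not flat before that, since the single knockouts differed from WT by -2.56 on the log2 scale (edgeR adjusted p = 0.00709) and A12_KO returned to 0.801, 1.72 and 1.73 CPM. PMEPA1, an inhibitor of TGF-beta signalling that the pathway itself induces, was between 0.152 and 2.01 CPM in the first 4 lines and at 28.2, 25.7 and 20.1 CPM in A123_KO. SLC2A3, the glucose transporter GLUT3, was at 9.21, 13.9 and 28.1 CPM in WT and at 268, 423 and 501 CPM in A123_KO, and reads from its close paralogue SLC2A14 may be shared with it. IL17RD, a feedback inhibitor of ERK signalling, was at 33.8, 29.4 and 36.9 CPM in WT, at 32.7, 58.5 and 62 CPM in A12_KO and at 722, 628 and 507 CPM in A123_KO. Its departure was 3.58 ± 0.41 (edgeR adjusted p = 0.000165).

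The genes named by rank that fell only at 3 were 4, picked by the same rule on A123_KO samples. ELMO3, an adaptor of RAC signalling, was between 10.9 and 23 CPM in the first 4 lines and at 1.97, 1.89 and 1.19 CPM in A123_KO. OR51B5 and OR51B4 are olfactory receptor genes that neighbour each other on chromosome 11. OR51B5 had a mean of 78 ± 14.8 CPM in WT and 7.73 ± 0.681 CPM in A123_KO. OR51B4 had means of 18.8 ± 2.14 and 1.99 ± 0.0971 CPM, and although its departure passed, its slope over 0 to 3 losses did not (edgeR adjusted p = 0.0644). The slope of OR51B5 (-0.81, edgeR adjusted p = 0.0225) lost its call without any one of the 3 A123_KO samples (-0.66 to -0.64). IRAG1, a substrate of cGMP kinase, had a mean of 9.17 ± 3.76 CPM in WT and 1.23 ± 0.22 CPM in A123_KO. KRT23, a keratin, was between 12.2 and 21.5 CPM in the first 4 lines and at 3.16, 2.42 and 2.03 CPM in A123_KO, and its slope call (-0.70) was likewise lost without A123_KO replicate 1, 2 or 3 (-0.57, -0.55 and -0.54).

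The classes were also described by the length of the 3′ UTR, which their definition did not use. A 3′ UTR of at least 100 bases could be assigned from the GENCODE canonical transcript to 14194 protein-coding genes tested (95.8%), with a median of 1390 bases. Outside 8q the median was 2066 bases in the 488 graded higher genes and 2716 bases in the 220 step-only higher genes. It was 976 bases in the 314 graded lower genes and 698 bases in the 99 step-only lower genes. These are descriptions without a test.

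The transcript strand of these 3′ UTRs was searched for the 8 letters that pair with a seed and end in A, counting overlapping matches: CTACCTCA for let-7, GCACTTTA for miR-17, CAGTATTA for miR-200c, ACTGTGAA for miR-27a, TGGTGCTA for miR-29a and ATAAGCTA for miR-21. Such a match is a description and not a proven site. Of all 14194 genes, 4.5% held the let-7 match, 5.49% that of miR-17, 5.43% that of miR-200c, 6.96% that of miR-27a, 3.7% that of miR-29a and 2.88% that of miR-21. Among the 779 genes with a miR-17 match, 309 (39.7%) had a higher slope, against 21.5% of the genes without one. Their median differences were 0.03 at the first loss, 0.11 at the second and 0.21 at the third, against 0.00, 0.01 and 0.05 in the genes without the match.

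Because genes with a match had 3′ UTRs of 3104 to 3448 bases in the median, the same was done within 3′ UTRs of 1000 to 2000 bases, where the 2 sets were of like length. There 49 of 128 genes with a miR-17 match (38.3%) had a higher slope, against 22.4% of those without, and 25 of 63 genes with a miR-21 match (39.7%), against 22.7%. For the other 4 families the shares with a higher slope lay close together with and without a match, such as 23% and 23.1% for let-7 and 20.9% and 23.1% for miR-200c. Their median differences at the third loss were still larger with a match. These were 0.17 for miR-27a, 0.15 for miR-200c, 0.12 for miR-29a and 0.11 for let-7, each against 0.07 without. The same value was 0.15 for miR-17 and 0.20 for miR-21, also against 0.07. Per 100 kb of 3′ UTR, graded higher genes held 4.32 miR-17 matches, step-only higher genes 2.85 and all genes 2.83. For let-7 graded higher genes held fewer matches than all genes (1.96 against 2.3), and for miR-29a too (1.73 against 1.88). They held more for miR-200c (3.54 against 2.82), miR-21 (1.96 against 1.46) and miR-27a (4.17 against 3.61), but the miR-27a match was denser still in graded lower genes (4.97).

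**Figure D3:**
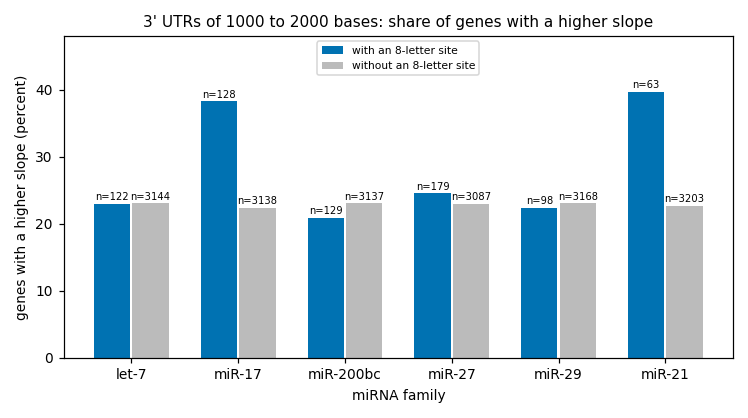
Percent of genes with a called higher slope (y axis) among genes with and without an 8-letter seed match (blue and grey bars), by miRNA family (x axis), for 3′ UTRs of 1000 to 2000 bases, with the number of genes above each bar. The bars for miR-17 (38.3% against 22.4%) and miR-21 (39.7% against 22.7%) are apart, and those of the other families lie near 20% to 25%.

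The genes of the miRNA machinery itself were followed next. All 3 TNRC6 genes rose. TNRC6A, the scaffold GW182, was at 118, 94.7 and 121 CPM in WT, at 180, 150 and 150 CPM in A12_KO and at 255, 262 and 289 CPM in A123_KO. TNRC6B was graded, at 184, 188 and 202 CPM in WT, 252, 293 and 271 CPM in A12_KO and 328, 308 and 292 CPM in A123_KO. TNRC6C was at 53.4, 49.9 and 47 CPM in WT, at 69.9, 57.8 and 67.2 CPM in A12_KO and at 119, 127 and 132 CPM in A123_KO, with a departure of 0.84 ± 0.15 (edgeR adjusted p = 0.00566). DICER1, the nuclease that cuts miRNA precursors and itself a let-7 target, was graded: it was at 95.4, 104 and 106 CPM in WT, at 137, 133 and 115 CPM in A1_KO, at 158, 204 and 182 CPM in A2_KO, at 169, 163 and 164 CPM in A12_KO and at 268, 280 and 297 CPM in A123_KO. A12_KO lay within the range of A2_KO, so DICER1 moved at the first and at the third loss. Of 13 genes of miRNA processing and export 2 were higher and 1 lower, the higher ones being DICER1 and ADAR, and the ADAR slope of 0.10 (edgeR adjusted p = 0.049) lost its call when any one sample other than A1_KO replicate 1 was left out (0.08 to 0.11). Of 29 genes of deadenylation and decapping 4 were higher and 6 lower. Of all genes 16.6% and 14.3% were, and of protein-coding genes with an assigned 3′ UTR 22.5% and 15.3%.

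Lists of mRNAs known as targets of miRNA families came next, against 16.6% higher and 14.3% lower over all genes. Among the protein-coding genes with an assigned 3′ UTR, the nearer comparison, 22.5% were higher and 15.3% lower. Of 28 miR-17 family targets 18 were higher and 1 lower, with a median slope of 0.27, and 6 of the higher ones were graded and 3 stepped only at 3. DPYSL2, a cytoskeletal regulator, was at 73.3, 50.9 and 74.4 CPM in WT, at 182, 222 and 236 CPM in A12_KO and at 462, 505 and 450 CPM in A123_KO. In A1_KO and A2_KO its means were 47.8 and 79.5 CPM, against 66.2 CPM in WT. BCL2L11, the pro-apoptotic BIM, had means of 27.9 ± 3.61, 43.8 ± 2.83 and 62.6 ± 9.75 CPM in WT, A12_KO and A123_KO. Of 38 classic let-7 targets 19 were higher and 3 lower, with a median slope of 0.24 and 4 graded higher, and the median of the list was 0.27 above WT in A12_KO and 0.79 above WT in A123_KO. HMGA2, an architectural chromatin protein, was at 412, 488 and 425 CPM in WT, at 565, 565 and 572 CPM in A1_KO, at 623, 658 and 562 CPM in A2_KO, at 762, 895 and 858 CPM in A12_KO and at 1494, 1637 and 1722 CPM in A123_KO. Each number of losses lay above the one before without overlap, and the slope was 0.62 ± 0.04 (edgeR adjusted p = 2.85e-07). Named list members, here and below, were those with the smallest slope p, so that separated lines were partly built in. CCND1, the G1 cyclin D1, was at 550, 486 and 532 CPM in WT, at 394, 442 and 433 CPM in A1_KO and at 652, 1050 and 709 CPM in A2_KO. It was at 1141, 1133 and 1145 CPM in A12_KO and at 2287, 2650 and 2713 CPM in A123_KO. The A1_KO samples of CCND1 thus lay below WT.

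Of 22 miR-200 targets and factors of the epithelial-mesenchymal transition 13 were higher and 1 lower, 5 of them graded. Relative to WT the list median was -0.15 in A1_KO, -0.16 in A2_KO, 0.21 in A12_KO and 1.03 in A123_KO. VIM, which encodes vimentin, was at 4.54, 3.16 and 4.86 CPM in WT, at 8.96, 10.1 and 5.1 CPM in A1_KO, at 2.17, 2.34 and 2.91 CPM in A2_KO, at 24.6, 21.6 and 25.8 CPM in A12_KO and at 42.7, 49 and 64.8 CPM in A123_KO. A1_KO lay above WT and A2_KO below it, and the 2 lines differed by -1.70 ± 0.24 (A2_KO minus A1_KO, edgeR adjusted p = 0.000261). Of 44 genes of epithelial junctions and polarity 20 were lower, 8 of them graded, and 5 were higher; 3 of the 44 lie on 8q. Relative to WT the list median was -0.39 in A1_KO, -0.08 in A2_KO, -0.44 in A12_KO and -0.49 in A123_KO. PKP3, a plakophilin of desmosomes, had means of 43.8, 36.8, 23.4, 14.9 and 6.49 CPM in WT, A1_KO, A2_KO, A12_KO and A123_KO, and CLDN7, a claudin of tight junctions, had means of 110, 65.8, 76.1, 33.6 and 11.2 CPM in the same order. Of 9 keratin genes tested 2 were higher and 3 lower.

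Signalling and patterning genes were followed at the last loss too, where 21 TGF-beta and BMP genes, 20 Hippo and YAP genes and 17 HOX genes rose from A12_KO to A123_KO, against 11.9% of all genes tested. Over all losses, of 41 TGF-beta and BMP genes 24 were higher and 3 lower. TGFB2, a ligand, was at 1.1, 1.21 and 0.875 CPM in WT, at 6.63, 6.72 and 9.1 CPM in A12_KO and at 22.9, 24.6 and 29.1 CPM in A123_KO. TGFBR1, the type I receptor, was graded with an added step, at means of 62.2 ± 7.25, 91 ± 4.71 and 187 ± 2.9 CPM in WT, A12_KO and A123_KO. SMAD7, the feedback inhibitor, was at 2.38, 2.62 and 2.08 CPM in WT, at 9.89, 5.21 and 5.27 CPM in A12_KO and at 29.1, 31.1 and 34.4 CPM in A123_KO. Of 38 Hippo pathway genes and YAP targets 19 were higher and 0 lower, 4 of them step only at 3 and 3 graded. PTPN14, a phosphatase that restrains YAP, was graded, with means of 120 ± 6.82, 358 ± 9.07 and 760 ± 73.2 CPM in WT, A12_KO and A123_KO. Of 31 clustered HOX genes 21 were higher and 1 lower, and HOXA9 was at 44.4, 42.9 and 47 CPM in WT, 75.8, 78.5 and 67.8 CPM in A12_KO and 213, 172 and 178 CPM in A123_KO. Without the A123_KO line 5 TGF-beta and BMP genes, 3 Hippo and YAP genes and 4 HOX genes were higher, and 4 Hippo and YAP genes were lower. Of all 22407 genes tested there, 387 were higher and 519 lower. At an unadjusted p under 0.05 in that edgeR fit, 10, 10 and 11 genes of these lists were higher and 3, 5 and 2 lower. Neighbouring HOX transcripts overlap, so that counts may be shared between them. Of 25 WNT targets and feedback genes 11 were higher and 7 lower, among them AXIN2, a feedback scaffold, which was at 12.1, 3.79 and 18 CPM in WT and at 99.5, 80 and 72.5 CPM in A123_KO.

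The median of the interferon-stimulated genes was highest in the double knockout. Of 47 members 27 were higher and 2 lower; 19 were graded and 9 turned back. Relative to WT the list median was -0.02 in A1_KO, 0.08 in A2_KO, 1.01 in A12_KO and 0.58 in A123_KO. Between A12_KO and A123_KO 13 members fell and 1 rose, against 10.1% and 11.9% of all genes. The summed level of the list was 1120 to 1230 CPM in WT, 1420 to 2270 CPM in A12_KO and 1520 to 1540 CPM in A123_KO, so that the last 2 overlapped. PARP14, an interferon-induced ADP-ribosyltransferase, was at 43, 41.6 and 50.8 CPM in WT, at 91.1, 86.7 and 61.4 CPM in A12_KO and at 80.3, 80.8 and 88.2 CPM in A123_KO. CMPK2, a mitochondrial nucleotide kinase induced by interferon, was at 0.47, 0.287 and 0.754 CPM in WT, at 3.78, 2.9 and 2.39 CPM in A12_KO and at 4.11, 3.26 and 4.51 CPM in A123_KO. Both overlapped between A12_KO and A123_KO. Without the A123_KO line, 25 members were called higher, against 5 of the miR-17 family targets, 3 of the let-7 targets and 387 of all 22407 genes tested. At an unadjusted p under 0.05 in that edgeR fit, 33 interferon-stimulated genes, 14 miR-17 family targets and 9 let-7 targets were higher, and 1, 1 and 3 lower.

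Cytosolic ribosomal protein genes, whose products form the 2 subunits of the ribosome, were lowest in the triple knockout. All 79 tested were lower, none was higher, and 16 stepped only at 3. Without the A123_KO line, edgeR called 0 of the 79 in either direction, while 13 were lower and 0 higher at an unadjusted p under 0.05, and the median slope was -0.15 per gene lost in place of -0.37. Relative to WT the list median was 0.22 in A1_KO, -0.05 in A2_KO, -0.28 in A12_KO and -1.02 in A123_KO, and 78 of 79 were lower in A123_KO than in A12_KO. The only 2 members that were graded, RPL7 and RPL30, both lie on 8q. RPL26 was at 632, 766 and 798 CPM in WT, at 489, 492 and 598 CPM in A12_KO and at 258, 260 and 293 CPM in A123_KO, and its departure was -0.85 ± 0.21 (edgeR adjusted p = 0.0342). RPL41 was at 1283, 1302 and 1444 CPM in WT, at 871, 899 and 1075 CPM in A12_KO and at 517, 492 and 531 CPM in A123_KO. In both genes the 3 lines did not overlap. Many ribosomal protein genes have processed pseudogenes, which may share their counts.

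Of 24 lncRNAs that host small nucleolar RNAs 22 were lower. Without the A123_KO line edgeR called 1 of them lower, while 9 were lower at an unadjusted p under 0.05. GAS5 was at 262, 453 and 271 CPM in WT, at 222, 205 and 229 CPM in A12_KO and at 120, 110 and 114 CPM in A123_KO. Of 60 ribosome biogenesis genes 33 were lower, but the list median was above WT in both single knockouts (0.19 in A1_KO and 0.40 in A2_KO) and below it in A12_KO (-0.20) and A123_KO (-0.48). Without the A123_KO line edgeR called 0 of them, while 4 were lower and 1 higher at an unadjusted p under 0.05. Of 80 nuclear-encoded oxidative phosphorylation genes 35 were lower, but this count was 1 without the A123_KO line in the edgeR fit (6 at an unadjusted p under 0.05), 58 without WT replicate 2, 22 without A123_KO replicate 1 and 21 without A123_KO replicate 2. Of 46 genes of the ATF4 and ER stress responses 22 were lower, 0 without the A123_KO line in the edgeR fit (6 at an unadjusted p under 0.05), 11 without WT replicate 2 and 13 without any one of the A123_KO samples. Of the ribosome biogenesis genes 3 lie on 8q, and of the oxidative phosphorylation genes 4. DDIT4, a stress-induced inhibitor of mTORC1, had means of 199 ± 110 CPM in WT, 67.8 ± 48 CPM in A12_KO and 14.1 ± 2.66 CPM in A123_KO (SD, n = 3).

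Of 39 genes of cholesterol and fatty acid synthesis 29 were higher and 0 lower, against 16.6% and 14.3% of all genes, and 7 of them were graded. Without the A123_KO line 3 were higher, where 387 of all 22407 genes tested were. In that edgeR fit 19 of the list were higher at an unadjusted p under 0.05. The list median slope was 0.277 there, against 0.305 with all lines. Relative to WT the list median was 0.00 in A1_KO, 0.45 in A2_KO, 0.62 in A12_KO and 1.01 in A123_KO. SCD, the desaturase that makes monounsaturated fatty acids, was at 1392, 847 and 1745 CPM in WT, at 2461, 4250 and 2985 CPM in A12_KO and at 4078, 4836 and 4994 CPM in A123_KO. ACSL3, which activates long-chain fatty acids with coenzyme A, was at 182, 107 and 187 CPM in WT, at 302, 291 and 289 CPM in A12_KO and at 411, 429 and 467 CPM in A123_KO. ACSL3 samples of the 3 lines did not overlap, whereas SCD overlapped between A12_KO and A123_KO.

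**Figure D4:**
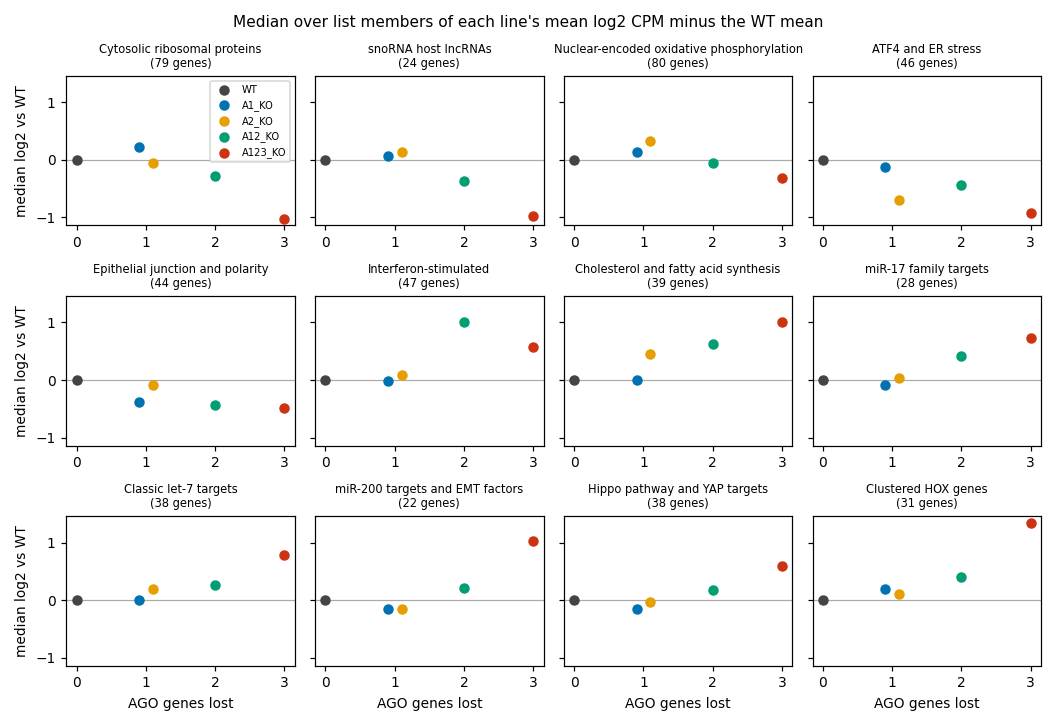
Median over the members of 12 gene lists of each line's mean log2 CPM minus the WT mean (y axis) against the number of AGO genes lost (x axis), with A1_KO and A2_KO side by side at 1. Ribosomal protein genes fall to -1.02 at 3 losses, interferon-stimulated genes peak at 1.01 at 2 losses, and the miR-17, let-7 and HOX lists are highest at 3.

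Genes of 8q, the arm that holds AGO2, were also described separately, because many of them moved together. They were left out of the ranking by size outside this arm but not of the counts above. Of 519 genes tested on 8q 215 were lower (41.4%), against 13.7% elsewhere in the genome, and 78 (15%) were graded lower, against 1.95%. The change came at the double knockout: among 8q genes averaging 1 CPM or more, the median was 0.01 above WT in A1_KO, 0.03 in A2_KO, -0.50 in A12_KO and -0.44 in A123_KO. In the 116 genes tested that start at or beyond 140 Mb, which includes the AGO2 locus, 77 were lower (66.4%), and in the 93 of them averaging 1 CPM or more the medians were -0.10, -0.16, -0.67 and -0.77. On 8p the medians stayed between -0.06 and 0.12. DNA copy number was not measured in these files.

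**Figure D5:**
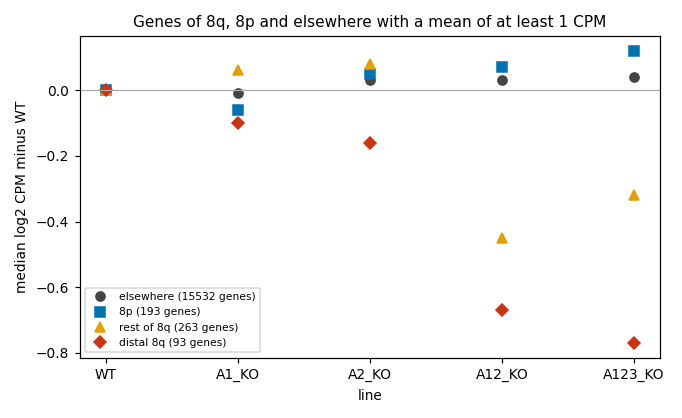
Median log2 CPM minus WT (y axis) in the 5 lines (x axis) for genes averaging 1 CPM or more on distal 8q (93 genes), the rest of 8q (263 genes), 8p (193 genes) and elsewhere (15532 genes). Both 8q groups lie below the others in A12_KO and A123_KO, with distal 8q at -0.67 and -0.77.

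Single 8q genes moved much further than the arm. MAL2, an epithelial transcytosis protein, was at 202, 203 and 162 CPM in WT, at 59.3, 76.4 and 60.6 CPM in A1_KO, at 217, 178 and 168 CPM in A2_KO, at 2.11, 2 and 2.54 CPM in A12_KO and at 0.51, 0.315 and 0.373 CPM in A123_KO. GRHL2, a transcription factor of epithelial identity, was at 36.6, 27.4 and 31.3 CPM in WT, at 14.6, 13.6 and 15.5 CPM in A1_KO, at 36.3, 24.7 and 25.6 CPM in A2_KO, at 2.05, 1.83 and 2.17 CPM in A12_KO and at 1.12, 1.02 and 1.22 CPM in A123_KO. ESRP1, an epithelial splicing regulator and a graded member of the junction list, was at 224, 383 and 174 CPM in WT and at 30.8, 29 and 26.7 CPM in A123_KO. MYC was at 300, 226 and 314 CPM in WT, at 136, 159 and 170 CPM in A12_KO and at 50.9, 58.8 and 65.8 CPM in A123_KO. It was not lower in the single knockouts, which lay between 281 and 363 CPM. Not every 8q gene fell: MYBL1, a MYB-family transcription factor, was graded with an added step and reached 264, 300 and 312 CPM in A123_KO from 18.9, 7.27 and 18.6 CPM in WT, and SGK3, a kinase of PI3K signalling, had a slope of 0.60 ± 0.06 (edgeR adjusted p = 7.35e-06).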

How the data were processed

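RNA-seq was measured in 15 samples, 3 of each of 5 lines. The authors aligned paired reads to hg38 with STAR and estimated transcript abundance with Salmon, and deposited an expected count per gene and sample; the submitters' notes give STAR 2.5.3a and Salmon 0.11.0. Estimated counts were rounded to whole numbers (30.8% to 33.8% of a sample's values were not whole). Of 57875 genes listed, 457 on chromosome Y were left out and 57167 were placed by GENCODE release 44; the 8q arm was taken to begin at 45000000. Totals ran from 27709971 to 45271146 counts per sample, and no 2 of 105 pairs of samples were identical. Genes were kept by filterByExpr over the lines, scaled by TMM and tested with edgeR 4.0.16 (R 4.3.3) in quasi-likelihood models with the number of losses, the number of losses plus a term for A123_KO, or a mean per line, with Benjamini-Hochberg adjustment over 22823 genes. Standard errors of log2 values come from these models.

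Named genes were the 4 with the largest A123_KO to WT difference in each class and direction outside 8q at a mean of at least 5 CPM (line means in order for graded classes, A123_KO beyond all other samples for step-only genes), AGO, TNRC6, DICER1 and MYC genes, up to 4 per list by the smallest slope p, and ranked 8q genes. Some genes that the rule names are not reported here. Members, lists and the rule were chosen with earlier results of these data known, and the 3′ UTR search and its length range were added after the results were seen. The fits were tested on simulated data in 22360 genes, with the spread within lines and no further scatter between lines. Of 50 genes with a graded 2-fold change over 3 losses 43 were called by the slope and 19 classed as graded. Of 50 with a 2-fold step at 3 losses 31 were classed as step only. Alternatives were DESeq2 1.42.0, limma 3.58.1, other scalings, filters and models, and leaving out lines or samples.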

Additional observations from a re-analysis of the deposited data

Results flagged for a closer look

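In the following genes the 2 lines with 1 gene lost differed from each other (A2_KO minus A1_KO, log2, edgeR's quasi-likelihood test at an adjusted p of at most 0.05), as they did in 18.4% of all genes tested. AGO1 (2.18) is the gene edited in A1_KO. Among the other machinery genes A2_KO was the higher for TNRC6A (0.53) and DICER1 (0.5) and the lower for TNRC6B (-0.34).

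Among the graded genes, with or without an added step, A2_KO was the lower for VIM (-1.7), VCAN (-1.28), PLK2 (-1.2), LOXL4 (-0.83), ZEB1 (-0.68), PKP3 (-0.65), ACER2 (-0.6), HEG1 (-0.52), PLK3 (-0.49), RPL7 on 8q (-0.35) and the overlapping lncRNA genes ENSG00000258077 (-1.25) and ENSG00000258088 (-0.9). It was the higher for CMPK2 (1.23), TGFB2 (1.13), CCND1 (0.93), CKMT1B (0.82), DPYSL2 (0.73), CRIM1 (0.61), ACSL3 (0.58), HOXA9 (0.56), PHLPP2 (0.5) and the 8q genes MAL2 (1.52) and GRHL2 (0.99). Among the genes that stepped only at 3, PMEPA1 (-2.47) was lower in A2_KO, and OR51B5 (1.19), SLC2A3 (1.17) and OR51B4 (0.76) were higher. Counting both lines as 1 loss averages over these differences.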

How the results depend on the processing

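The trend rests most on the A123_KO line and on treating samples within a line as the unit. With the 5 line means as 5 points, limma-trend called 0 genes higher, 0 lower and 0 of the 8q genes lower, while 4621 genes had an unadjusted p under 0.05 (9390 in the edgeR fit) and the smallest adjusted p was 0.0828. Without the A123_KO line 387 genes were higher, 519 lower and 66 of 8q lower, the median 8q slope was -0.27 (-0.29 without the WT line), and the slopes of KRT23 (0.02), PMEPA1 (-0.18), OR51B4 (0.06) and AGO2 (-0.14) reversed.

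Requiring also a 2-fold change left 1668 higher and 1715 lower slopes, 758 slopes over 0 to 2 losses, 623 departures, 730 genes at the first step, 1280 at the next and 1505 at the last, 1282 between A2_KO and A1_KO, 265 graded higher, 298 graded lower, 134 step only higher, 16 with an added step, 92 turned back and 140 lower on 8q. With contrasts of the 5 line means, whose error is only the spread within lines, 3807 slopes over 0 to 2 losses and 3208 departures passed, with 1268 graded higher, 1219 graded lower, 514 step only higher, 469 step only lower, 467 with an added step and 710 turned back. DESeq2 gave 1674 departures, 798 graded lower, 297 step only lower, 127 with an added step and 280 turned back. Scaling by totals gave 384 graded higher and 821 graded lower. Without the A1_KO line the first step called 4529 genes and 264 turned back, and without a filter on low counts 30 had an added step.

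Same-numbered samples of different lines did not deviate together (mean correlation -0.00664, 5 of 30 pairs over 0.1, and 3 of 15 samples correlated best with their own number), so the numbers were not taken as pairs. With the replicate block 3500 slopes were higher and 2936 lower, 24 genes had an added step and 79 turned back.

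Leaving out 1 sample at a time gave 2709 to 3768 higher and 2506 to 3575 lower slopes, a median 8q slope of -0.23 to -0.20 and 186 to 231 lower 8q genes. Slopes over 0 to 2 losses numbered 578 to 1582 (595, 578 and 644 without A12_KO replicate 1, 2 and 3), and departures 500 to 1008 (613 and 544 without A12_KO replicate 2 and 3, and 537, 500 and 507 without A123_KO replicate 1, 2 and 3). The first step called 1169 to 3508 genes (1169 without WT replicate 2, 1491 and 3508 without A1_KO replicate 2 and 3), the next 3123 to 5899 (3123 without A12_KO replicate 2), the last 3546 to 5911, and A2_KO minus A1_KO 2234 to 5425 (2578 and 2310 without A1_KO replicate 2 and 3, 2298 and 2234 without A2_KO replicate 2 and 3). Graded higher genes numbered 193 to 707, graded lower 256 to 579 (256, 272 and 277 without A12_KO replicate 1, 2 and 3), step only higher 132 to 234 (154 without WT replicate 3, 159 and 142 without A12_KO replicate 2 and 3, 149 and 132 without A123_KO replicate 2 and 3) and step only lower 98 to 210 (113 without A12_KO replicate 3, and 108, 98 and 119 without A123_KO replicate 1, 2 and 3). Genes with an added step numbered 13 to 55 (24 and 33 without WT replicate 1 and 3, 18, 16 and 13 without A12_KO replicate 1, 2 and 3, and 31, 23 and 21 without A123_KO replicate 1, 2 and 3), and those that turned back 50 to 164 (83 without WT replicate 1, 69, 55 and 50 without A12_KO replicate 1, 2 and 3, and 64, 62 and 65 without A123_KO replicate 1, 2 and 3).

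Over 31 alternatives, 4855 of 5225 values of the 169 named genes kept direction and call, 355 lost the call, 11 gained it and 4 reversed. The cause of these changes was not tested. In simulated data with a graded 2-fold change, 19 of 50 genes reached the graded class, so that small graded changes were under-counted there. The simulated counts held the spread within lines and no further scatter between lines, whereas A2_KO and A1_KO differed in 18.4% of genes in the data. How many graded changes were missed in the data was therefore not tested.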

Other observations

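Other gene groups are set against 16.6% higher and 14.3% lower slopes over all genes, and 22.5% and 15.3% over protein-coding genes with an assigned 3′ UTR. Of 55 DNA replication genes 1 was higher and 0 lower, and of 47 replication-dependent histone genes 1 was higher and 0 lower. Their list medians were not flat. In A1_KO, A2_KO, A12_KO and A123_KO they lay 0.25, 0.93, 0.26 and 0.56 above WT for replication and 0.46, 0.87, 0.25 and 0.62 for histones. The WT samples spread widely, with sums of 2040 to 4760 CPM for replication and 3680 to 7780 CPM for histones. Of 56 mitosis genes 19 were higher and 0 lower, but the count was 8 without WT replicate 2, 12 without A1_KO replicate 2 or A12_KO replicate 1, and 7, 8 and 6 without A123_KO replicate 1, 2 and 3, and the list median was 0.77 above WT in A123_KO. ANLN, a scaffold of the cleavage furrow, had means of 176, 146, 300, 337 and 802 CPM in WT, A1_KO, A2_KO, A12_KO and A123_KO. Of 47 extracellular matrix genes 18 were higher and 2 lower, with a list median of -0.36 in A1_KO, -0.61 in A2_KO, 0.10 in A12_KO and 0.44 in A123_KO relative to WT. COL13A1, a transmembrane collagen, was at 8.49, 9.44 and 17.8 CPM in WT, at 67.5, 104 and 96.6 CPM in A12_KO and at 207, 237 and 236 CPM in A123_KO. Of 226 zinc finger genes of chromosome 19, 26 were higher and 21 lower.

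A few further single genes were looked at. LYZ, which encodes lysozyme, was at 0.157, 0.159 and 0.0603 CPM in WT, at 2.08, 3.93 and 3.54 CPM in A12_KO and at 6.68, 7.71 and 8.13 CPM in A123_KO, while of the other blood markers CD68 had means of 3.48, 8.2 and 1.48 CPM in these lines and CD3D and MS4A1 were at 0. RN7SL3, a 7SL RNA gene of the signal recognition particle with near-identical copies, was between 304 and 667 CPM in the first 4 lines and at 82.8, 86.8 and 90.3 CPM in A123_KO. MAP2, a neuronal microtubule protein, turned back: it was at 19.7, 21.2 and 10.9 CPM in WT, at 1.15, 1.48 and 1.88 CPM in A12_KO and at 5.59, 6.17 and 5.36 CPM in A123_KO.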
